A study of Sus scrofa with 4 samples.

Results

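The loci described here are transcribed regions of the pig genome that have an assembled identifier (XLOC) in place of an Ensembl gene, carry a strand, and overlap or lie within 10000 bases of an Ensembl gene on the same chromosome. The expression table holds 1247 of them among 35248 rows. Its 9368 XLOC rows include 3730 with a strand, of which 2436 lie further than 10000 bases from any Ensembl row and 47 sit on a scaffold that has none; the remaining 5638 XLOC rows have no strand. Among the rows of the table, the selection used position and strand only, and the comparison between treatments played no part in it. An assembled locus enters the table through reads, unlike an annotated gene, so level can have played a part there. A mean of at least 1 FPKM was reached by 91.0% of these loci and by 41.2% of the Ensembl rows.

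The 4 RNA-seq libraries were made from parthenogenetic pig embryos at the 4-cell stage, which arise from electrically activated oocytes with no sperm. Those of 2 libraries were treated with 50 µM Bobcat339, a small molecule used to inhibit the TET enzymes that oxidise 5-methylcytosine in DNA, and those of 2 control libraries received DMSO, the solvent, which the labels also give at 50 µM. Culture lasted 48 h in each. The strain, the age of the oocyte donors and the number of embryos per library are not given in the sources used here, and nothing says that libraries of a group came from separate cultures, so a p-value here reflects the spread among these libraries alone, which may be technical. Library totals ranged from 13568525 to 14681221 counts, and 3 counts correspond to 0.204 to 0.221 CPM, the count scaled to a common library size. Of 6 fixed embryo markers, including BMP15, GDF9 and KLF17, 6 were detected in each library, with a summed level of 9945 to 11478 CPM. The 14 matched cumulus and granulosa markers summed to 120 to 161 CPM, with AMH at 0 in each library and FSHR at 0 in 3, and the 7 blood markers to 12.2 to 17.5 CPM. In pools of embryos, fewer cells holding a transcript and less of it per cell cannot be told apart.

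A 4-cell pig embryo holds RNA stored by the oocyte together with the first products of its own genome, whose major activation in pigs takes place around this stage. Transcripts outside annotated genes can be unannotated genes, further exons of a known gene, long non-coding RNAs, or divergent transcripts that start near a promoter and run away from it on the other strand. The side and strand relative to the neighbouring gene separate these arrangements: head to head (opposite strand, upstream), tail to tail (opposite strand, downstream), and same strand upstream or downstream. Retroelement-driven transcription is also common at this stage in mammals.

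Most of these loci lay on the strand opposite to their nearest gene, and that excess was found close to the gene. Of the 1247 loci, 745 were on the opposite strand and 502 (40.3%, Wilson 95% interval 37.6 to 43.0%) on the same strand. Within 500 bases of the gene, 58 of 319 loci (18.2%, 14.3 to 22.8%) shared its strand, and beyond 5000 bases 191 of 368 (51.9%, 46.8 to 57.0%) did. The intervals cover counting error only, and loci near the same gene are not independent of each other. The cDNA method used for these libraries does not mark strand, and how the strand of a locus was assigned is not given. How the assembly treated transcripts close to a gene on its own strand is not stated either. The shares are thus those of the listed loci and may not hold for all transcripts near genes. Stranded loci further than 10000 bases from a gene were near an even split as well, with 1260 of 2436 (51.7%) on the strand of their nearest gene. Neighbouring Ensembl genes within 500 bases of each other shared a strand in 40.8% of 1401 pairs that did not overlap, above the 18.2% of the loci.

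The head-to-head arrangement held the largest number of loci. It comprised 441 loci, with a median distance of 802 bases to the gene, and 196 of them began within 500 bases, at a median distance of 118.5 bases. Tail-to-tail loci numbered 298, of which 59 lay within 500 bases. On the same strand, 264 loci lay upstream of the gene and 230 downstream, with 35 and 15 within 500 bases. A further 14 loci spanned a whole Ensembl gene, 8 on its strand and 6 opposite to it, and no locus lay inside a gene or overlapped it in part, so the other 1233 were intergenic by the Ensembl rows of the table.

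**Figure D1:**
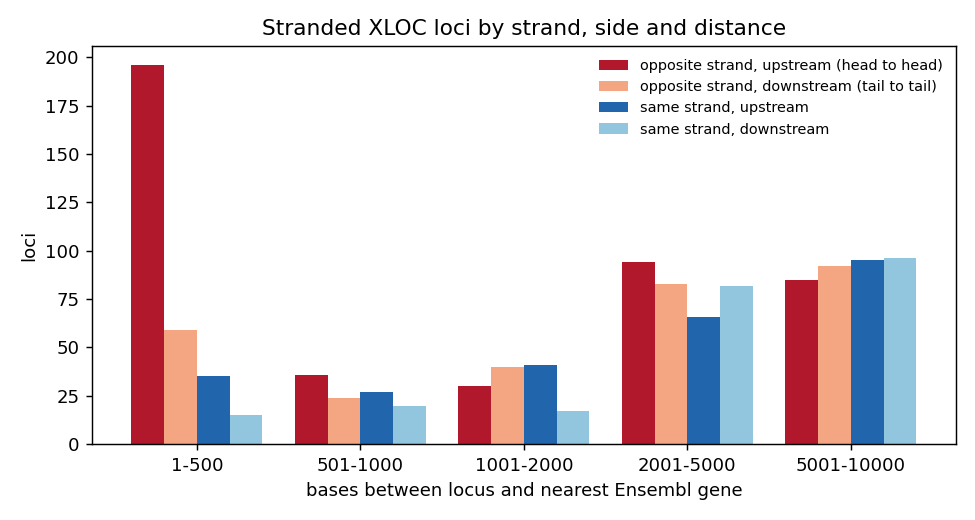
Number of loci (vertical axis) by the number of bases between locus and nearest Ensembl gene (horizontal axis), with a bar for each strand and side; the 14 loci that span a gene are left out. The bar of 196 head-to-head loci within 500 bases stands above the other bars, whereas beyond 5000 bases the 4 arrangements hold 85 to 96 loci each.

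The loci were longer on the genome than in their transcripts. Their median span was 6301 bases, against a median of 1219 bases for the length that the deposited FPKM (counts scaled by length and depth) imply, and in 1174 of the 1247 this implied length was below the span. By another measure, the length in the table, 0 of the 5638 unstranded XLOC rows were shorter than their span. The 1247 loci had 1157 distinct nearest genes, and 81 genes were nearest to more than 1 locus, with at most 3 at a gene. For 338 loci, more than 1 Ensembl gene lay within the window. Chromosome 6 carried 137 of the loci, the X chromosome 65 and the Y chromosome 4, and 35 were on unplaced scaffolds.

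The RefSeq annotation of Sscrofa11.1 has a gene over many of these loci. Of the 1212 loci on chromosomes it covers, 651 (53.7%) overlapped a RefSeq gene by at least 1 base and 561 overlapped none. The gene with the most overlap was a lncRNA at 331 loci and protein coding at 299, and it had only a LOC number at 442. At 320 loci a RefSeq gene over at least 1 base of the locus, not always the one with the most overlap, also overlapped the nearest Ensembl gene. At 154 of them such a RefSeq gene carried the name of the Ensembl gene, so its model reaches the locus by at least 1 base. Of those 154, 101 were on the opposite strand to the Ensembl gene as the table gives it. The RefSeq table used here has no strand, so it does not show which strand the RefSeq gene is on.

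Named RefSeq genes over abundant loci included several known from oocytes and early embryos. These were chosen after their values were seen. The RefSeq gene covered 72.1% of the span of its locus for DUXA, 86.3% for NLRP4, 24.7% for NANOGNB and 93.4% for DPPA4. The values are those of the loci, and whether their reads come from the RefSeq gene was not tested. XLOC_027590 on chromosome 6 (61538287 to 61548016, - strand) overlaps DUXA, a double homeobox gene of the early embryo, and lies upstream of ZIM3 on the same strand. It was measured at 282 and 294 CPM with Bobcat339 and at 267 and 304 CPM in the controls. XLOC_026203 on chromosome 6 (60227117 to 60272347, + strand) overlaps NLRP4, a member of the NLRP family of which several are oocyte genes, and had 175 and 214 CPM with Bobcat339 and 179 and 237 CPM in the controls. XLOC_024207 on chromosome 5 (62888774 to 62907439, + strand) overlaps NANOGNB, a homeobox gene next to NANOG, and had 170 and 158 CPM with Bobcat339 and 194 and 241 CPM in the controls. XLOC_007750 on chromosome 13 (150165400 to 150177414, + strand) overlaps DPPA4, the partner of DPPA2 in early embryos, and its nearest Ensembl gene is DPPA2, 9349 bases away on the same strand. It had 57.0 and 43.6 CPM with Bobcat339 and 115 and 58.7 CPM in the controls, with the single high value in control 1. In each of these loci but XLOC_007750 and XLOC_024207 the ranges of the groups overlapped; the log2 fold changes of Bobcat339 over control were -0.79 ± 0.34 (SE) for XLOC_007750 and -0.41 ± 0.26 for XLOC_024207, and neither passed the edgeR test after adjustment (adjusted p = 0.999 for each). XLOC_007750 gave -0.22 without control 1 and -1.16 without control 2, where it passed (adjusted p = 0.00578), and XLOC_024207 gave -0.21 without control 2.

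Most of the loci were expressed at a low level. Of the 1247, 1235 had at least 1 count and 12 had 0 in each library; 962 reached a mean of 1 CPM, 280 reached 10 CPM and 38 reached 100 CPM. The median was 3.02 CPM. Loci with a RefSeq lncRNA over them had a median of 4.43 CPM, those with a protein-coding RefSeq gene 3.91 CPM, and those with none 1.98 CPM. Corrected for length, these medians were closer together, at 2.80, 2.54 and 2.07 FPKM. Together the loci took 2.79 and 2.98% of all counts in the Bobcat339 libraries and 2.51 and 2.99% in the controls, with the lowest share in control 1.

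A few loci carried much of that total. The most abundant held 15.0% of the counts of these loci and the 10 most abundant held 45.1%. XLOC_017228 on chromosome 2 (83105938 to 83138170, + strand), which has no RefSeq gene over it, lies 3817 bases downstream of ARHGEF28 on the same strand. It had 4159 and 4762 CPM with Bobcat339 and 3495 and 4487 CPM in the controls, while ARHGEF28 lay between 1.07 and 1.74 CPM in the 4 libraries. Per length, the locus averaged 131 FPKM and ARHGEF28 0.240 FPKM, so the locus was far above the gene beside it. The length that its FPKM implies equals its span of 32233 bases, unlike that of most of these loci.

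By length-corrected level the leading locus was XLOC_019599 on chromosome 3 (31304721 to 31307409, + strand), which overlaps the RefSeq lncRNA LOC110260131. Its values were 2838 and 2482 FPKM with Bobcat339 and 3400 and 3609 FPKM in the controls, with both treated libraries below both controls. The log2 fold change was -0.42 ± 0.22 (SE) and did not pass the edgeR test (adjusted p = 0.999), though it did without control 1 (-0.44, adjusted p = 0.0303). XLOC_015945 on chromosome 18 (40763444 to 40784308, - strand) lies tail to tail with LSM5, a subunit of the Sm-like complex that binds U6 RNA. It had 1882 and 1898 CPM with Bobcat339 and 1943 and 1398 CPM in the controls, and the controls enclosed the treated libraries. Against control 2 alone, the treated libraries were higher by 0.43 on the log2 scale. Against control 1 alone the estimate was -0.01, so any difference hung on which control was kept. XLOC_024893 on chromosome 5 (62848998 to 62859119, - strand), upstream of GDF3 on the same strand and overlapped by the protein-coding LOC100511133, had 1026 and 1117 CPM with Bobcat339 and 1100 and 1324 CPM in the controls. GDF3, a ligand of the TGF-beta family, was itself at 18.3 and 20.4 CPM with Bobcat339 and 26.0 and 16.8 CPM in the controls. XLOC_016499 on chromosome 2 (11500412 to 11513507, + strand), over the protein-coding LOC110259711, averaged 883 FPKM against 5.63 FPKM for its head-to-head neighbour ENSSSCG00000039899. The other 5 of the 10 most abundant loci averaged 481 to 717 CPM. Among them, XLOC_008594, downstream of the ubiquitin ligase gene FBXO45, had 850 and 807 CPM with Bobcat339 and 513 and 701 CPM in the controls, with the groups apart and a log2 fold change of 0.45 ± 0.24 (SE) that did not pass the test (edgeR adjusted p = 0.999); without control 1 it was 0.24, and without control 2 it was 0.72 and passed (0.0202). XLOC_013461, tail to tail with TMEM267, had 495 and 467 against 508 and 569 CPM, with the groups apart. XLOC_023827 near C12orf75, XLOC_018503 and XLOC_033106 had 483 to 708, 494 to 603 and 424 to 548 CPM, with overlapping groups. Outside these 10, the most abundant head-to-head locus beside a gene with a symbol was XLOC_032274, 9229 bases from the neuropeptide receptor gene QRFPR. This locus had 380 and 378 CPM with Bobcat339 and 199 and 345 CPM in the controls. Its log2 fold change of 0.48 ± 0.28 (SE) did not pass the edgeR test (adjusted p = 0.999). Against control 1 alone the estimate rose to 0.96, and against control 2 alone it fell to 0.13.

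Compared per length with the nearest gene, the loci as a group were near the gene's level, and the arrangements differed. The median was 2.35 FPKM for the loci and 3.04 FPKM for their nearest genes, counted once per locus. Among 1161 pairs in which both were detected, the locus was the higher in 546 (47.0%). Same-strand downstream loci were the higher in 133 of 217 pairs (61.3%), with a median ratio of locus to gene of 2.55, and same-strand upstream loci in 112 of 244 (45.9%). Tail-to-tail loci were the higher in 133 of 272 (48.9%) and head-to-head loci in 158 of 417 (37.9%). The loci themselves had similar medians: 2.49 FPKM (same-strand downstream), 2.15 (same-strand upstream), 2.48 (tail to tail) and 2.31 (head to head). The medians of their nearest genes lay further apart, at 1.28, 3.18, 2.41 and 5.35 FPKM in that order.

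Head-to-head loci within 500 bases stood beside well expressed genes. The median level of these 196 loci was 2.46 FPKM, close to that of all 1247, but the median of their genes was 10.5 FPKM. The locus was the higher in 54 of 195 pairs (27.7%) with a median ratio of 0.268. Of the 195 distinct genes in this arrangement, 172 (88.2%) had a mean of at least 1 FPKM, compared with 748 of 1157 (64.6%) of the nearest genes of all these loci and 10655 of 25880 (41.2%) of the Ensembl rows. Among the 558 Ensembl genes that have another Ensembl gene head to head within 500 bases, 432 (77.4%) reached that level, with a median of 5.37 FPKM.

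**Figure D2:**
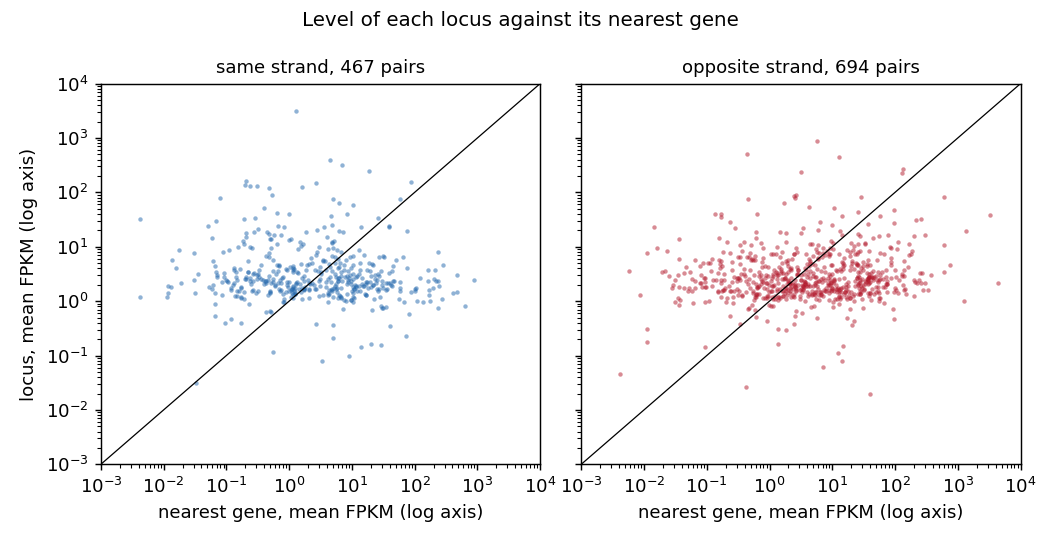
Mean FPKM of each locus (vertical, log axis) against that of its nearest gene (horizontal, log axis), for 467 same-strand and 694 opposite-strand pairs in which both were detected; the line marks equal levels. The loci gather between about 1 and 10 FPKM over the whole range of gene levels.

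Likeness to the nearest gene was measured as Pearson's r of log2(CPM + 0.5) over the 4 libraries, for the 700 pairs in which locus and gene both averaged at least 1 CPM. With 4 points that share libraries and depth, a single r says little, and the values are given as a description. The median r was 0.24 for 285 same-strand pairs (quartiles -0.43 and 0.72) and 0.28 for 415 opposite-strand pairs (quartiles -0.41 and 0.71), so the medians lay close together. Over 3 libraries the same-strand median was 0.42 without either Bobcat339 library and 0.16 without control 1, wider apart than the strands. For the 1045 pairs of loci beyond 10000 bases the median was 0.21, and for 3032 pairs of neighbouring Ensembl genes without overlap it was 0.21. The share of pairs with r above 0 was 59.4% for these loci, 58.4% for the loci further away and 58.7% for the gene pairs, and the distributions covered nearly the same range. Values above 0.9 were found in 75 pairs and values below -0.9 in 28.

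**Figure D3:**
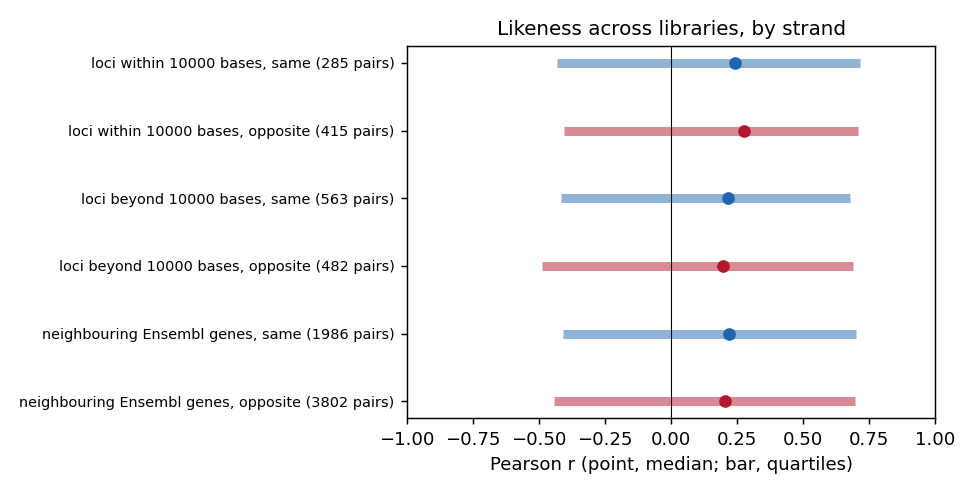
Pearson's r over the 4 libraries (horizontal axis) for locus and nearest gene, or for neighbouring Ensembl genes including overlapping ones, by strand; points are medians and bars run from the lower to the upper quartile. The medians of the 6 sets lie between 0.19 and 0.28 and the bars overlap over nearly their whole length.

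Median r swung between distance bins that hold few pairs, and no difference between bins was tested. For tail-to-tail pairs it was 0.55 within 500 bases (32 pairs), 0.50 between 500 and 1000 bases (16 pairs, few for a median) and 0.17 beyond 5000 bases (37 pairs). For same-strand downstream loci it was 0.54 within 500 bases and -0.51 between 500 and 1000 bases, with 8 pairs in each bin, and for same-strand upstream loci it was 0.25 within 500 bases (23 pairs) and 0.51 in the next bin beyond 1000 bases (17 pairs). Ensembl genes lying tail to tail within 500 bases had a median of 0.34 over 152 pairs. Head-to-head loci within 500 bases had a median of 0.26 (155 pairs), beside 0.28 for head-to-head Ensembl genes at that distance (426 pairs). Smart-seq2 cDNA does not mark strand and no counting setting is stated, so reads where a locus runs into the gene on the other strand cannot be assigned to either of them.

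Pairs in which a RefSeq gene overlapped both locus and gene, by at least 1 base each, were somewhat more alike. The median r was 0.41 for the 191 such pairs, 0.47 for the 106 in which that RefSeq gene has the name of the nearest gene, 0.25 for the 284 pairs with no RefSeq gene over the locus, and 0.16 for the 215 with another RefSeq gene only. By strand, pairs under a shared RefSeq gene had medians of 0.43 (same) and 0.39 (opposite). Pairs with no RefSeq gene over the locus had 0.36 and 0.17, so the gap was wider on the opposite strand. The difference was not tested. Of the 320 loci that share a RefSeq gene with their neighbour, 33.8% were on its strand, against 42.2% of those with no RefSeq gene.

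The strongest and weakest likeness was sought among pairs in which both averaged at least 5 CPM and the gene spanned at least 1 log2 unit over the libraries, which 17 same-strand and 18 opposite-strand pairs met. The highest same-strand values were 0.98 for XLOC_012803 with ABCA12, a lipid transporter, 0.95 for XLOC_022505 with TRHR, the receptor of thyrotropin-releasing hormone, and 0.94 for XLOC_032239 with ENSSSCG00000036773. XLOC_022505 had 13.9 and 15.4 CPM with Bobcat339 and 7.15 and 15.3 CPM in the controls, and TRHR had 7.75 and 9.59 against 3.93 and 7.14 CPM, so control 1 was the lowest library for both. The lowest same-strand value was -0.995, for XLOC_004080 with ITGB1, the integrin beta subunit: the locus had 6.52, 7.26, 4.93 and 15.3 CPM in Bobcat339 libraries 1 and 2 and controls 1 and 2, and the gene 11.6, 11.5, 15.3 and 6.50 CPM. The locus was thus lowest and the gene highest in control 1, and the reverse in control 2. XLOC_020236 with the zinc finger gene RBAK had an r of -0.45. On the opposite strand, the highest values were 0.91 for XLOC_036924 with the arylsulfatase gene ARSE, 0.89 for XLOC_021956, which begins 17 bases from TIPRL, and 0.86 for XLOC_027597 with the zinc finger gene ZNF773. The lowest were -0.89 for XLOC_013891 with STC2, a secreted glycoprotein, -0.88 for XLOC_021783 with POP1, a subunit of RNase P, and -0.76 for XLOC_034330, which begins 102 bases from C1GALT1, a glycosyltransferase. STC2 had 150, 138, 206 and 81.3 CPM in that order of libraries and its locus 8.56, 9.30, 9.003 and 15.1 CPM, with control 2 at the extreme of both.

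Of the pairs within a group, the controls differed more than the Bobcat339 libraries, and the loci differed between the controls in another direction than the Ensembl rows did. Of the 1054 loci that passed the count filter of the test, 172 (16.3%) were highest in control 1 and 425 (40.3%) in control 2, while of the tested Ensembl rows 37.5% were highest in control 1 and 27.5% in control 2. On the log2 scale, centred on each row's mean, the median of the loci was -0.17 in control 1 and 0.14 in control 2, against 0.06 and -0.01 for Ensembl rows. Stranded loci further from genes had medians of -0.25 and 0.18, and unstranded loci 0.08 and -0.06. Ensembl rows between the CPM quartiles of the loci were highest in control 1 in 34.5% and in control 2 in 27.1% of cases. At 10 CPM or more, 15.7% of 280 loci were highest in control 1 and 48.6% in control 2. Loci with a RefSeq lncRNA had centred medians of -0.24 and 0.17 in the 2 controls, and those with a protein-coding RefSeq gene -0.08 and 0.06. A change of more than 2-fold between the 2 controls was seen in 132 of the 1054 loci (12.5%), and between the 2 Bobcat339 libraries in 55 (5.22%), beside 11.3% and 4.79% of all tested rows. What sets the controls apart was not tested.

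**Figure D4:**
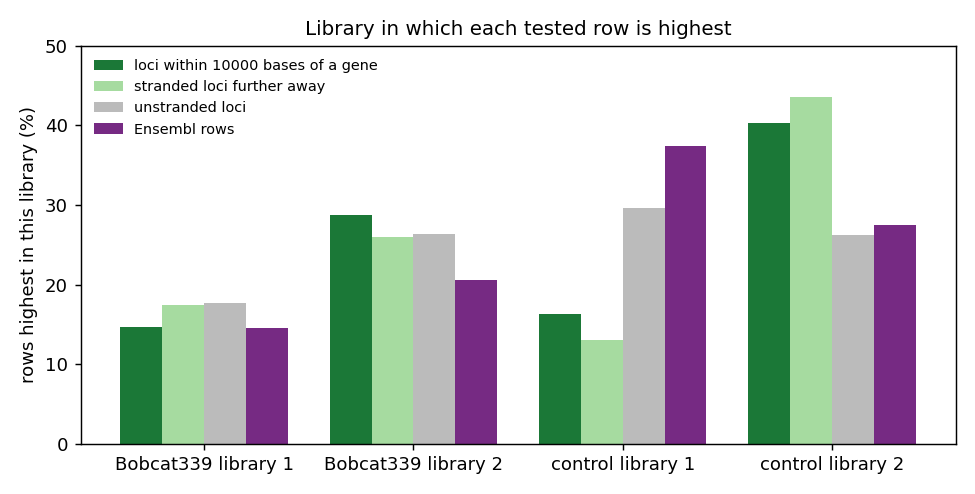
Percent of tested rows (vertical axis) whose highest CPM fell in each of the 4 libraries (horizontal axis), for the loci near genes, stranded loci further away, unstranded loci and Ensembl rows. Both sets of stranded loci are seldom highest in control library 1 (16.3% and 13.0%), where 37.5% of Ensembl rows are highest.

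Between Bobcat339 and control, none of the loci passed the test. At an adjusted p under 0.05 in edgeR's quasi-likelihood test, 0 of the 1054 loci tested were called. The background over the 18481 rows tested was 0 as well (0%). DESeq2 called 0 of 1235 loci, beside 5 of 30007 rows over the whole table. The smallest adjusted p of a locus in the edgeR test was 0.789. Without control 1 the same test called 24 of 1108 loci (2.17%; 2.92% of all rows) and without control 2 it called 17 of 1101 (1.54%; 2.47% of all rows), while leaving out either Bobcat339 library gave 0. At an unadjusted p under 0.05, 14 loci (1.33%) were higher with Bobcat339, beside 1.36% of all rows, and 22 (2.09%) were lower, beside 2.64%. Both treated libraries lay above both controls at 157 loci (14.9%; 13.3% of all rows) and below them at 126 (11.95%; 16% of all rows). The shares of the loci were near those of the whole table, or below them for lower values.

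The median log2 fold change of the loci was 0.04, that of all tested rows -0.02, and that of the tested nearest genes -0.01, with 578 loci above 0 and 476 below. It was 0.01 for same-strand and 0.07 for opposite-strand loci. Its sign rested on the controls: without control 1 the median was -0.10, and without control 2 it was 0.29. Locus and nearest gene had fold changes of the same sign in 419 of 797 pairs in which both were tested (52.6%), and in 100 of 176 head-to-head pairs within 500 bases (56.8%). Since both members of a pair come from the same 4 libraries, these shares are a description.

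The loci with the smallest p and groups that did not overlap are given as values, since none passed after adjustment with the 4 libraries (adjusted p from 0.789 to 0.999 in edgeR). XLOC_012803 on chromosome 15 (117459218 to 117463068, - strand), 8554 bases upstream of ABCA12 on its strand, had 4.76 and 2.47 CPM with Bobcat339 and 10.6 and 9.64 CPM in the controls, a log2 fold change of -1.48 ± 0.41 (SE). ABCA12 itself had 7.0 and 4.79 CPM against 9.43 and 10.5 CPM, so locus and gene both lay lower in the treated libraries. XLOC_013796, head to head with the ribosome rescue gene PELO at 669 bases, had 3.74 and 3.70 CPM with Bobcat339 and 7.72 and 8.50 CPM in the controls (-1.12 ± 0.39). XLOC_028130, downstream of FOXD3, a forkhead factor of pluripotent and neural crest cells, had 7.48 and 8.50 against 20.7 and 13.6 CPM (-1.10 ± 0.36), while FOXD3 stayed under 1 CPM in each library. XLOC_016795 had 3.87 and 2.69 against 7.22 and 8.64 CPM (-1.27 ± 0.41), and XLOC_019650, downstream of the adenylyl cyclase gene ADCY9, had 3.53 and 2.69 against 4.86 and 9.28 CPM (-1.18 ± 0.44). Of these 5, XLOC_012803 passed the edgeR test without control 1 and without control 2 (adjusted p = 0.0128 and 0.0203) and with the replicate number as a block (0.0392). Without control 1, XLOC_016795 and XLOC_019650 passed as well (adjusted p = 0.0191 and 0.0049), and without control 2 XLOC_028130 did (0.011), while XLOC_019650 then gave -0.61.

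Among loci with higher values in the treated libraries, XLOC_017320 on chromosome 2 (102591546 to 102850978, + strand) begins 125 bases from ELL2, a transcription elongation factor, head to head. It had 9.31 and 12.1 CPM with Bobcat339 and 4.14 and 5.85 CPM in the controls (log2 fold change 1.10 ± 0.38 SE), whereas ELL2 had 260 and 287 CPM against 312 and 204 CPM and its groups overlapped. XLOC_003428, upstream of BRINP3 on its strand, had 10.6 and 11.98 against 5.72 and 5.78 CPM (0.97 ± 0.36). XLOC_033715 begins 140 bases from CD46, a complement regulator that is expressed on many cells, and had 12.4 and 15.3 against 9.65 and 5.14 CPM (0.90 ± 0.38). Values for CD46 were 34.0 and 54.9 CPM with Bobcat339 and 32.4 and 30.2 CPM in the controls, so this gene too was higher in both treated libraries. XLOC_021952 had 8.15 and 13.1 against 3.07 and 7.997 CPM (0.94 ± 0.44), and its upper control lay just under its lower treated library. With 1 control left out, XLOC_021952 gave 0.41 without control 1 and 1.81 without control 2 (edgeR adjusted p = 0.00812), XLOC_033715 gave 1.42 without control 1 (adjusted p = 0.00665) and 0.54 without control 2, and XLOC_017320 passed without control 2 (1.39, adjusted p = 0.0303).

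Several loci lay beside genes of the oocyte and of early development, from lists chosen with earlier results of these data known. Of 35 maternal and oocyte genes in the table, 7 had a locus nearby, 8 loci in all; each was on the opposite strand, 8 were tested and 0 were called, with 6 fold changes above 0 and 2 below and a median of 0.17 on the log2 scale. XLOC_037815 on the X chromosome (44594708 to 44612735, - strand) begins 387 bases from BMP15, a growth factor secreted by the oocyte, head to head. It had 38.4 and 50.0 CPM with Bobcat339 and 35.9 and 40.3 CPM in the controls, and BMP15 had 3721 and 4640 against 4259 and 4450 CPM. Per length the locus averaged 38.9 FPKM and BMP15 3289 FPKM. XLOC_010765, 3245 bases head to head from the zona pellucida gene ZP4, had 43.8 and 46.6 CPM with Bobcat339 and 36.4 and 42.2 CPM in the controls, so the groups did not overlap; its log2 fold change of 0.20 ± 0.30 (SE) was smaller than its error. Outside the naming rule and chosen after its values were seen, XLOC_000237 begins 38 bases from OOEP, a member of the subcortical maternal complex, and its values were 3.87, 3.99, 2.86 and 4.57 CPM. XLOC_026734 near the oocyte transcription factor LHX8 and XLOC_032191 near FBXW7, a ubiquitin ligase subunit, averaged 18.9 and 5.54 CPM.

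For genes of zygotic activation and early lineages, 5 of 24 in the table had a locus nearby, 6 loci in all, 3 on each strand; 0 of the 6 tested were called, 2 fold changes were above 0 and 4 below, and the median was -0.27. KLF17, a Krüppel-like factor of early embryos, had a locus on each side, both on the opposite strand. XLOC_026888, 939 bases beyond its end, had 21.7 and 17.5 CPM with Bobcat339 and 20.5 and 8.07 CPM in the controls, and XLOC_026889 (outside the naming rule), which begins 238 bases from its start, had 3.19 and 3.12 against 4.43 and 7.50 CPM. Without control 1, XLOC_026888 was called higher (1.28 on the log2 scale, edgeR adjusted p = 0.00792), and without control 2 it gave -0.03. The first tracked KLF17 over the libraries with an r of 0.79 and the second had an r of -0.50. XLOC_034049 on chromosome 9 (32808775 to 32811229, - strand) begins 2 bases from YAP1, a co-activator of the Hippo pathway. Its levels of 13.6 and 13.6 CPM with Bobcat339 and 9.15 and 17.1 CPM in the controls followed those of YAP1, which were 130 and 127 CPM against 91.7 and 144 CPM, with r = 0.99. Both were lowest in control 1 and highest in control 2. XLOC_000296, upstream of LIN28B, a repressor of let-7, had 8.22, 7.77, 13.1 and 5.35 CPM.

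Of 24 genes of DNA methylation and its removal in the table, 2 had a locus nearby, both head to head within 500 bases, and 0 of 2 were called. XLOC_024331 begins 316 bases from TDG, the glycosylase that excises oxidised forms of 5-methylcytosine, and had 1.09 and 3.27 CPM with Bobcat339 and 1.93 and 1.93 CPM in the controls. XLOC_000974 begins 54 bases from UHRF2, a relative of the DNMT1 cofactor UHRF1, and had 3.19 and 3.05 against 2.57 and 6.28 CPM, while UHRF2 had 822 and 995 against 822 and 1236 CPM. The groups overlapped for both loci, and no locus lay within the window of TET1, TET2 or TET3 as nearest gene. Of 48 histone modifier genes, 3 had a locus nearby, 2 of which were tested and 0 called. XLOC_007138 on chromosome 13 (29996450 to 29999112, + strand) begins 91 bases from SETD2, the histone H3 lysine 36 methyltransferase, and had 18.6 and 22.6 CPM against 16.2 and 12.1 CPM in the controls, with an r of 0.90 to SETD2 and a log2 fold change of 0.54 ± 0.34 (SE). XLOC_014288 near the acetyltransferase gene KAT6A had 4.89 and 6.61 against 3.86 and 3.86 CPM, with an r of -0.97.

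The cell cycle list gave 1 locus, XLOC_010828, tail to tail with CDK1 at 513 bases, with 1.22, 1.60, 0.857 and 3.14 CPM. The cumulus and granulosa list gave 1 as well, XLOC_003663 upstream of VIM on its strand, with 0.951 and 0.291 CPM with Bobcat339 and 1.21 and 3.28 CPM in the controls and a log2 fold change of -1.83 ± 0.71 (SE; adjusted p = 0.999, edgeR). That value was -2.92 without Bobcat339 library 1, -1.20 without Bobcat339 library 2, -0.91 without control 2 and -2.37 without control 1, where it passed (adjusted p = 0.0314). The blood and immune list gave 0 loci. With the 4 libraries, neither of the 2 loci was called.

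**Figure D5:**
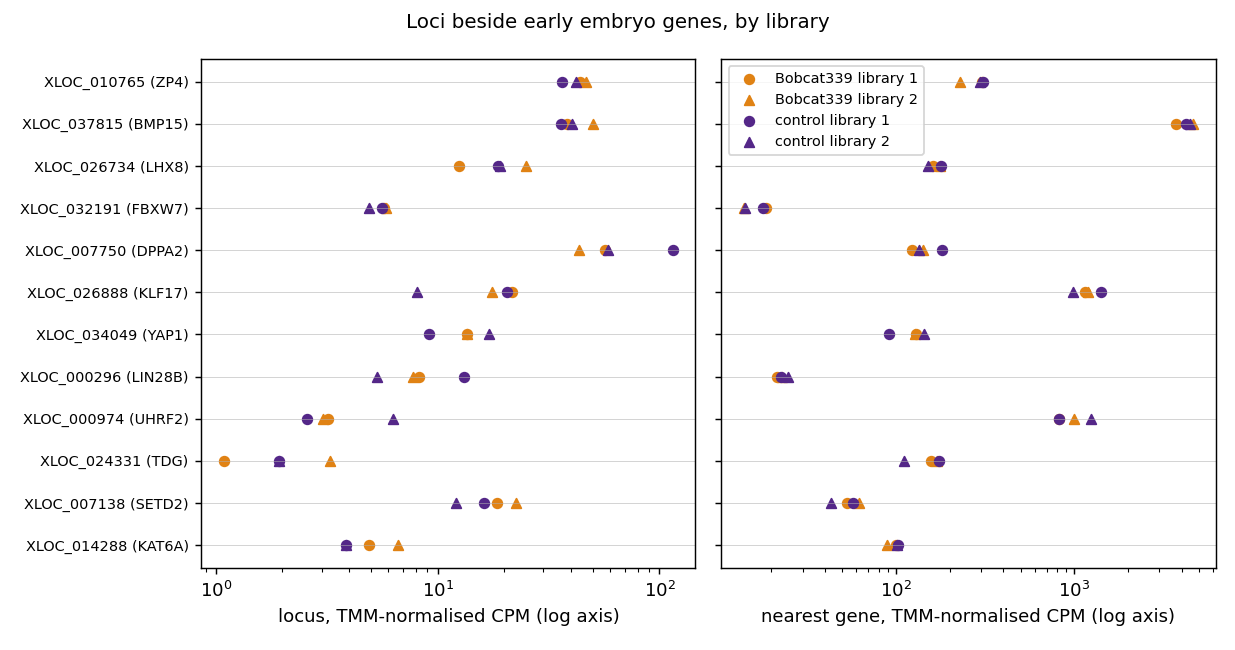
TMM-normalised CPM (log axes) of 12 loci, left, and of their nearest genes, right, with the gene in brackets; circles and triangles are libraries 1 and 2, orange for Bobcat339 and violet for control. XLOC_034049 and YAP1 keep the same order of libraries, and XLOC_037815 stands between 35.9 and 50.0 CPM where BMP15 stands between 3721 and 4640 CPM.

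A locus that spans a gene is at least as long as that gene, and the 14 of this kind had a median span of 120312 bases. Their median level was 14.9 CPM, beside 2.96 CPM for the loci without overlap. Corrected for length the medians were closer, at 3.69 and 2.34 FPKM. The locus was the higher per length in 10 of 11 pairs with both detected. XLOC_004377 on chromosome 11 (764614 to 790179, + strand) spans GJB2, the connexin 26 gene, on the other strand. The locus had 29.4 and 28.04 CPM with Bobcat339 and 18.9 and 29.3 CPM in the controls, and GJB2 had 2.07 to 3.13 CPM. Corrected for length, the means were closer, at 7.33 FPKM for the locus and 3.84 FPKM for GJB2. XLOC_021745 on chromosome 4 (29817223 to 30401124, + strand) spans ANGPT1, a ligand of the TIE2 receptor, on its strand, and had 25.6 and 28.8 against 27.3 and 29.8 CPM. The RefSeq model of ANGPT1 covers 52.8% of the locus, and how reads in the shared part were divided between the rows is not stated. The other rule-named loci of this kind, XLOC_025619 over LOC110261265 and XLOC_010273 over RF00599, had 4.58 to 7.07 CPM and 12.8 to 14.9 CPM over the 4 libraries.

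On the Y chromosome, 4 loci held counts although these embryos had no paternal genome. XLOC_038913 had 230 and 228 counts in the Bobcat339 libraries and 156 and 240 in the controls, XLOC_038851 had 130 and 153 against 140 and 163, XLOC_038868 had 36 and 37 against 20 and 41, and XLOC_038869 had 11 and 8 against 12 and 10. The levels were alike in treated and control libraries. The labels do not say how reads that match several places were counted, and this was not tested.

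At the edge of the window, XLOC_003727 and XLOC_037434 lay 9999 bases from NRP1 and ZBTB33 and had an r of 0.63 and 0.59 with them. The RefSeq model of ZBTB33, the gene of the methyl-CpG binding protein Kaiso, covers 99.3% of XLOC_037434. Just outside, XLOC_026815 lay 10009 bases from GLIS1 with an r of -0.33, and XLOC_007249 lay 10035 bases from SNTN with an r of 0.998.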

How the data were processed

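The authors deposited raw counts per row (whole numbers), FPKM values, and a length for each row. HISAT2 2.0.5 and DESeq2 1.16.1, with Trimmomatic and HTSeq, and the build Sscrofa10.2 are listed in the submitters' processing notes; the transcript assembler, the origin of the loci's strand and the strand setting of counting are not given in the sources used here. Of 16988 symbols compared, 99.894% overlap the Sscrofa11.1 gene of that name, so the table's coordinates are taken as Sscrofa11.1. Per the labels, libraries were made with Smart-seq2, which has no molecular identifiers. Deposited FPKM equal the count divided by the library total and by a whole-number length, which is below the table's length in 11391 rows. In 120 rows start exceeds end and was swapped (3 of the loci or their genes).

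The nearest gene is the Ensembl row with most overlap, or else the smallest gap. Tests used edgeR 4.0.16 (R 4.3.3) on the 18481 rows left by filterByExpr at a minimum count of 10, with TMM scaling, glmQLFTest and Benjamini-Hochberg adjustment; the common biological coefficient of variation was 26.4%. The fit was tested on simulated data. Printed CPM are TMM-normalised and SEs come from the fit. The loci and lists were chosen with earlier results of these data known. Named loci are the 10 most abundant, the 5 with the smallest p in each direction with groups apart and at least 5 CPM, the 2 most abundant per class with a named gene, up to 4 per gene list, the 3 highest and lowest r per strand, and those at the window's edge; others were chosen after their values were seen, and 2 loci that the rule names are not reported here. Alternatives were DESeq2 1.42.0, its size factors, other filters, windows and measures of likeness, the replicate number as a block and each library left out; added after seeing the data were leaving out the swapped rows and the pairs under a shared RefSeq gene. The libraries of a group differed beyond counting noise (chi-square per row 12.5 within Bobcat339, 48.2 within control), so each was counted as 1 sample. Columns of no sample used here number 0. No sequences were used.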

Additional observations from a re-analysis of the deposited data

How the results depend on the processing

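Over the whole table, DESeq2 called 5 of 30007 rows, while its size factors, no filter and a filter of 5 CPM called 0. The count of loci called stayed at 0 with DESeq2, DESeq2 size factors, no filter and a filter of 5 CPM. With the replicate block it was 1 of 1054 (XLOC_012803, lower; 44 of all 18481 rows, 0.238%); same-numbered libraries deviated together with r = 0.19, and 2 pairs do not show whether the numbers pair the samples. With a library left out the count ran from 0 to 24: it was 24 without control 1 (586 of 20063 rows over the whole table), 17 without control 2 (494 of 19999 rows) and 0 without either Bobcat339 library. The lone control is then assumed to vary like the treated libraries. The median log2 fold change ran from -0.10 (without control 1) to 0.29 (without control 2), and the cause was not tested.

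The same-strand share of 40.3% was 35.4% within 5000 bases, 24.6% within 1000 bases and 57.1% over the 14 overlapping loci. The median r on the same strand ran from 0.16 to 0.42 with a library left out, and on the opposite strand from 0.22 to 0.38. The opposite-strand median was 0.21 without pairs that share a RefSeq gene, 0.36 at 5 CPM or more and 0.20 with Spearman's rank correlation; the cause was not tested. The medians of r over overlapping loci alone were not run, with 1 pair per strand.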
